A study of Homo sapiens with 74 samples.

Results

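The promoters of 50 genes of DNA replication and the cell cycle were examined in chromatin profiles of tagged zinc-finger proteins (ZFPs). The 50 genes were chosen by name and are called members here, out of 20046 protein-coding genes in the GENCODE 44 annotation of hg38. A gene was counted as called in a library when at least 1 peak came within 1 kb of any annotated transcription start site (TSS) of the gene, measured from the nearest edge of the peak. By this rule 33 of the 50 members (66%) were called in at least 1 library, beside 55.8% of all protein-coding genes. Only 10 members (20%) were called in both replicates of at least 1 ZFP, beside 16.7% of all genes. When each peak was given only to the gene with the nearest start, these shares were 52% of members beside 50.5% of all genes, and 12% beside 12.4%.

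The profiles came from Cut&Run, in which an antibody brings a nuclease to the chromatin around a tagged protein and the released DNA is sequenced. HEK293T cells, a line derived from human embryonic kidney, were transfected with plasmids for 1 ZFP each, tagged with V5 at the C terminus and expressed from the EF1-alpha promoter, and were collected after 48 h. The 36 ZFPs had 2 replicates each, every replicate from its own culture well, which gave 72 peak lists, and the controls were un-transfected cells taken through the same V5 immunoprecipitation (mock IP). Each list was called against a mock IP of the same batch, and because lists of different ZFPs share these controls they are not independent. Of the 36, CPSF4, MBNL1, SNRPC, TRIM55, ZC3H3 and ZMAT5 have no Cut&Run target genes in the study's own summary, and their lists are used here all the same. The paper also counts 36 ZFPs with Cut&Run data past quality control, but by that summary they are not the same 36. A peak shows where an overexpressed tagged protein sat on average in a well of cells, and not where the endogenous protein sits.

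The lists held 15 to 8702 peaks, 92122 in all. List length is given in place of depth, since the labels give a common approximate sequencing depth but no read total of a single library. How far list length follows depth was not tested. Peaks on exons of the tagged gene itself, which the plasmid also carries, were present in both replicates of 32 ZFPs. In ZC3H3, 1 of the 32, the fold there was 3029 in replicate 1 and 3.99 in replicate 2. They were present in 1 replicate of MBNL1 and TRIM55. The libraries labelled U2AF1 and ZMAT5 had none in either replicate. Those labelled U2AF1 had peaks of fold 2716 and 3226 within 1 kb of starts of USP39, another gene with a zinc finger, where the highest fold in the other 70 lists was 12.8. Peak lists hold no expression levels, so the cell line could not be checked by marker genes.

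Replication starts at origins that are licensed in G1 phase, when the origin recognition complex (ORC), CDC6 and CDT1 load the MCM helicase onto DNA. In S phase CDC45 and the GINS complex activate the helicase, and DNA polymerases, held on the template by the sliding clamp PCNA, copy the strands. Cyclins and their kinases time these steps, and many of the genes are switched on together by E2F factors in late G1 or, for the mitotic genes, in G2 through the cell cycle homology region (CHR). Their promoters are mostly CpG islands that are open in dividing cells such as HEK293T.

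Known promoter elements were looked for in the sequences of the members, with no test of the shares. In the window from 250 bases before to 50 bases after the canonical start, read on both strands, an E2F word (TTTCCCGC or TTTGGCGC) was found in 18 of 50 members (36%), beside 3.08% of all promoters of the same length. A CCAAT box, bound by the factor NF-Y, was found in 38 members (76%) beside 36.1%. The Sp1 word GGGCGG was found in 74% of members beside 61.3%, and the CHR word TTTGAA in 20% beside 11.5%. The NRF1 word GCATGCGC and the ETS word ACTTCCGG were each found in 4 members (8%), beside 4.27% and 6.14%. An E2F word was present in 12 of the 33 members that were called and in 6 of the 17 that were not, and this difference was not tested. Words were read at the canonical start, whereas calls count any start, and 9 of the called members, GINS1 and RPA3 among them, had peaks at starts over 1 kb from the canonical one. A match is a string of letters and not a bound site.

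The 8 windows below show the DNA under or beside the peaks of the highest-ranked members, with CCNE2 not considered. Each of these members had at least 40 exon-free bases upstream of a start with peaks. Whether CCNE2, which ranked above some of them, had as many was not checked. Members were ranked by the number of ZFPs with a call in both replicates, then by the number of lists. Each runs 5′ to 3′ on the strand of the gene and ends just before that start. They lie on hg38 at chr16:46689519-46689642 (plus strand) for ORC6, chr20:5119959-5120108 (minus) for PCNA, chr2:10122178-10122327 (plus) for RRM2, chr20:25390858-25391007 (plus) for GINS1, chr6:20401729-20401878 (plus) for E2F3, chr19:29811841-29811990 (plus) for CCNE1, chr6:52284882-52285031 (minus) for MCM3 and chr17:40287729-40287878 (plus) for CDC6. Capitals mark the words named above on either strand, so CCAAT can read ATTGG and TTTCCCGC can read GCGGGAAA. The ORC6 window is the whole gap between the starts of ORC6 and its neighbour VPS35, and 16 of the 22 ORC6 peaks reached into it. In ORC6 the first run of capitals holds the NRF1 word on both strands, overlapping itself.
ORC6: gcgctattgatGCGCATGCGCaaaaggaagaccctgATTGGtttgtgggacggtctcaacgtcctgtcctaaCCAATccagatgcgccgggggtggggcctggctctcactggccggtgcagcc
PCNA: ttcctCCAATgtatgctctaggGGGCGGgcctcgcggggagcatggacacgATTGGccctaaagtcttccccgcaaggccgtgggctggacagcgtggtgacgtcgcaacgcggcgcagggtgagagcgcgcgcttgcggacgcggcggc
RRM2: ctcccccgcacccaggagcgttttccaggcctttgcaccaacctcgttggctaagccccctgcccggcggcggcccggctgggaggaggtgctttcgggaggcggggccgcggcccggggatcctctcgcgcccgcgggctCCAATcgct
GINS1: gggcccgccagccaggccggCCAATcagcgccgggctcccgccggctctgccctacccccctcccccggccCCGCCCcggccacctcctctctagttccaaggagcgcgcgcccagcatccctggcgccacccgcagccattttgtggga
E2F3: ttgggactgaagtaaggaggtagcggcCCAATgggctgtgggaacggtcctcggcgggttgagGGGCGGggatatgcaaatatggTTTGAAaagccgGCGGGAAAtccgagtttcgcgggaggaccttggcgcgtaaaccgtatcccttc
CCNE1: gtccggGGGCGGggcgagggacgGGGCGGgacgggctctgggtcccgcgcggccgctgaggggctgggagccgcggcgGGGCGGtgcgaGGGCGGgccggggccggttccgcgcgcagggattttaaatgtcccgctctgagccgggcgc
MCM3: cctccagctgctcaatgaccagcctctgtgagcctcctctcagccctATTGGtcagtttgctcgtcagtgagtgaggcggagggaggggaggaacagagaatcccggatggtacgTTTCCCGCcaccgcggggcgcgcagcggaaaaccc
CDC6: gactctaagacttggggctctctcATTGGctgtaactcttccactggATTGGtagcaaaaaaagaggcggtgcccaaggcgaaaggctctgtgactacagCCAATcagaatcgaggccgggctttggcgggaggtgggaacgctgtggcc

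CCAAT boxes stood in 7 of these 8 windows, all but that of CCNE1, which held 4 copies of the Sp1 word. The E2F word stood in the windows of E2F3 and MCM3. Summits of both MCM3 peaks, of 3 CDC6 peaks, of 2 peaks each at ORC6 and RRM2 and of 1 each at PCNA and CCNE1 fell inside the printed bases, and those of GINS1 and E2F3 fell outside.

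Calls of members came mostly from the ZFPs with many promoter peaks. No member was called in either replicate of 17 ZFPs (BRCA1, CNBP, CNOT4, CPSF4L, GTF3C4, MAZ, MBNL1, NANOS2, RBM5, RNF14, SALL4, WBP4, ZFP36L1, ZNF2, ZNF317, ZNF574 and ZNF706). Their lists were poor in promoters altogether, with at most 1.14% of all protein-coding genes called. Of the 147 calls of a member in a list, 130 (88.4%) came from the 10 ZFPs with the highest member shares, which also held 87% of the calls of all protein-coding genes. Replicate 1 libraries gave 99 of the member calls (67.3%) and 68% of the calls of all genes.

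G2E3, a ubiquitin ligase with PHD-type fingers, had the highest mean share. Its lists called 22% of members in replicate 1, beside 12% of all genes, and 20% in replicate 2, beside 14.8%, for a mean of 21% ± 1.41 (SD, n = 2). Members were above all genes in both replicates. APEX2, a DNA repair endonuclease, called 16% and 24% of members beside 18.9% and 16.4% of genes, so that its replicates fell on opposite sides of the background. CISD1, an iron-sulfur protein of the mitochondrial outer membrane, called 32% and 4% beside 25.4% and 7.05%. The SD of CISD1 over replicates, 19.8 percentage points, was larger than its mean of 18%.

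ZNF22, a C2H2 zinc-finger protein, called 26% and 8% of members beside 24% and 6.66% of genes. PHF7, a histone ubiquitin ligase, called 24% and 2% beside 22.9% and 1.71%. In both ZFPs the member share followed the list from replicate to replicate and stayed within 3 points of the background. CTCF, the insulator protein that marks domain borders, called 18% and 6% beside 10.9% and 6.1%. GIN1, which is related to retrotransposon integrases, called 12% and 6% beside 10.5% and 5.71%. The CTCF excess was present in replicate 1 only.

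Shorter lists gave the remaining values. CPSF4, a subunit of the machinery that cleaves and polyadenylates mRNA, called 6% and 8% of members beside 6.37% and 2.67% of genes. ZMAT3, an RNA-binding protein induced by p53, called 12% and 2% beside 4.73% and 0.823%. TEX13A, a testis protein, called 8% and 4% beside 5.88% and 1.72%. With 50 members 1 gene is 2%, so several of these differences amount to 1 or 2 genes.

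**Figure D1:**
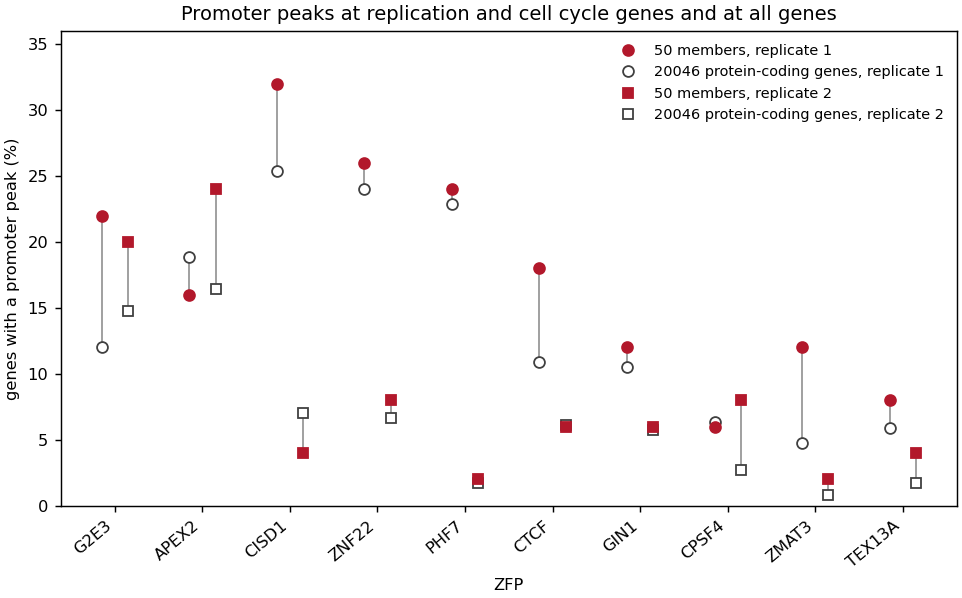
Percent of the 50 members (filled) and of all 20046 protein-coding genes (open) with a promoter peak in each replicate (circles, replicate 1, squares, replicate 2) of the 10 ZFPs with the highest mean member share. G2E3 stands above its background in both replicates (22% and 20% beside 12% and 14.8%), whereas the shares of PHF7 and ZNF22 follow theirs.

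Over all 36 ZFPs the member share was above that of all genes in both replicates for 6 (G2E3, GIN1, PHF7, TEX13A, ZMAT3 and ZNF22), below in both for 18 and mixed for 12. Of the 18 below, 17 were those with no member called, and the other was TRIM55. The count stayed at 6 or 7 with other distances, the canonical start or stricter peak thresholds. It fell to 1 when each peak was given only to the nearest start, to 1 beside CpG-rich genes and to 2 with ORC6 left out. Averaged over ZFPs the member share exceeded that of all genes by 0.807 percentage points but this depended on the setting. The difference was 0.585 to 0.896 points with other distances, the canonical start or stricter peak thresholds. It was -8.87e-05 points under nearest-start assignment, -0.44 beside CpG-rich genes and 0.295 with ORC6 left out. ORC6 was the most-called member and the background was kept whole, so leaving ORC6 out had to lower the mean difference. The values without ORC6 show only how much rests on that gene. Beside genes with a peak in any list the count was 1 and the mean difference -1.79 points. That background dropped uncalled genes while the 17 members without a peak were kept, so both values could only fall and decide nothing. The difference of a single list varied between replicates of a ZFP with an SD of 2.50 points, pooled over all 36 ZFPs. The 17 ZFPs with no member called are in this pool and lower it. Among ZFPs with calls, the differences were -2.94 and 7.57 points in APEX2 but 1.47 and 0.288 in GIN1. No test was made of these shares.

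Calls present in both replicates of a ZFP gave a similar picture. G2E3 had 6 such members (12%) beside 5.15% of all genes: ORC6, PCNA, POLD1, RRM2, GINS1 and CCNE1. When a −log10 q of at least 3 was asked for, G2E3 kept RRM2 and GINS1 alone in both replicates. Under nearest-start assignment G2E3 lost ORC6 and GINS1. APEX2 had 4 (8%) beside 8.33%, and ZNF22 had 4 (8%) beside 4.8%. CISD1 and CTCF had 2 each (4%), beside 4.82% and 3.5%. Apart from G2E3 and ZNF22 these shares lay within 1 member of their background. PHF7, CPSF4, TEX13A and ZMAT3 had ORC6 alone (2%), beside 1.13%, 0.928%, 0.449% and 0.254%, and the remaining 27 ZFPs had none.

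Among the 125 pairs of a ZFP and a member called in at least 1 replicate, 22 (17.6%) were called in both, beside 16.5% for all genes. Most member calls were therefore seen in a single library. Without ORC6 the count was 13 of 113 (11.5%). ORC6 was called in both replicates of 9 of its 12 ZFPs, so leaving it out had to lower the share.

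**Figure D2:**
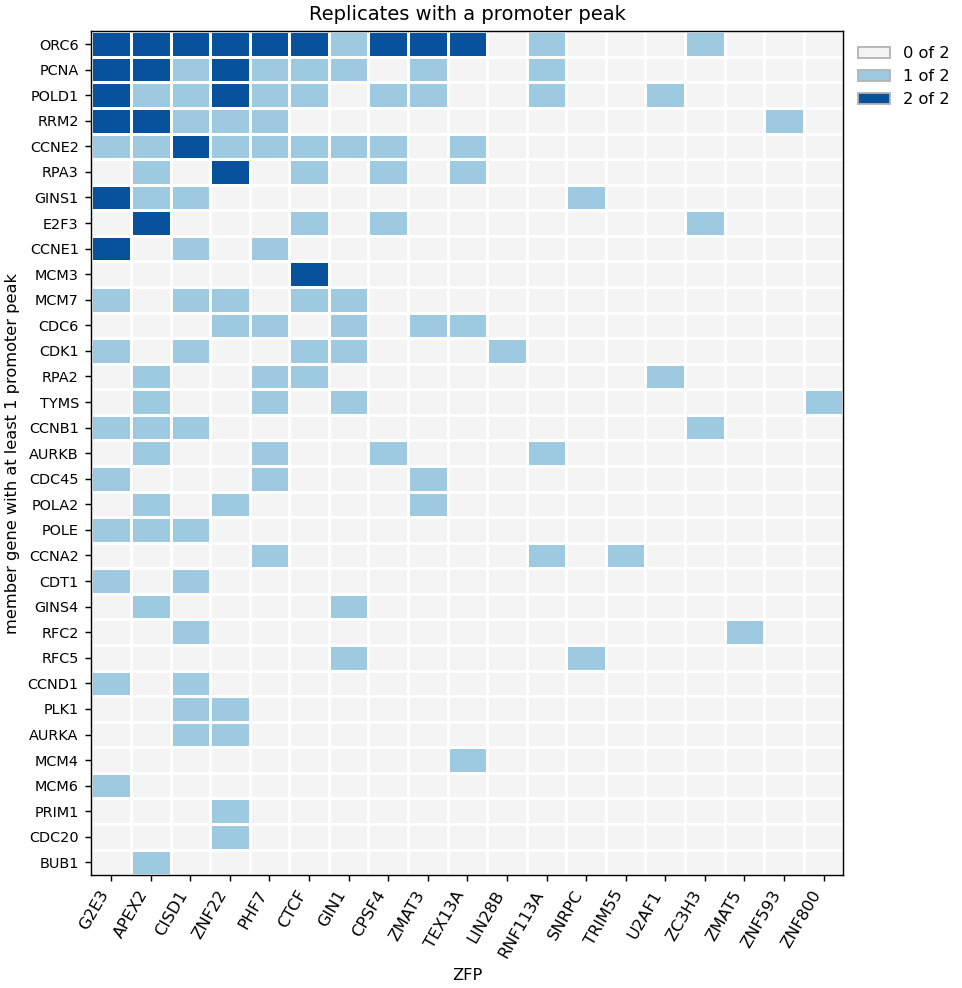
Number of replicates (0, 1 or 2) with a promoter peak for each of the 33 called members (rows, in the order of the number of ZFPs) and the 19 ZFPs with any member call (columns). ORC6 fills 2 of 2 in 9 ZFPs, and no other member does so in more than 3.

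Among the licensing genes, ORC6 had the most calls of any member. Counts for the roles below can be read beside the 55.8% of all genes called in any list and the 16.7% called in both replicates of a ZFP. With 2 to 8 genes a role, the roles were not compared with each other. ORC6, the smallest subunit of the origin recognition complex, was called in both replicates of 9 ZFPs (APEX2, CISD1, CPSF4, CTCF, G2E3, PHF7, TEX13A, ZMAT3 and ZNF22) and in 1 replicate of GIN1, RNF113A and ZC3H3. With peaks of a −log10 q of at least 3 alone, 5 ZFPs kept a call in both replicates, and 8 did when only peaks overlapping between replicates counted, CPSF4 being lost. Without the ZFPs that lack target genes in the study's summary, CPSF4 among them, the count was also 8. ORC6 was thus called in 21 of the 72 lists, whereas the median member was called in 2 lists and the median protein-coding gene in 1. Just 29 protein-coding genes (0.145%) were called in both replicates of 9 or more ZFPs.

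The fold of a peak is the signal of the library over that of the mock IP at the summit, as the peak caller gave it. At ORC6 it was 14.4 and 6.06 in the replicates of ZNF22, 9.01 and 8.57 in APEX2, and 7.93 and 7.70 in CTCF. It was 9.06 and 5.74 in ZMAT3, 8.91 and 5.36 in PHF7, and 8.88 and 5.54 in CISD1. APEX2 and CTCF gave near-equal replicates, whereas the others named differed. TEX13A gave 5.26 and 4.66 and CPSF4 4.91 and 4.79. G2E3 had 1 peak of 4.98 in replicate 1 and peaks of 4.89 and 5.42 in replicate 2. In all 9 ZFPs the replicate with the longer peak list had the higher ORC6 fold, and the part of list length in these folds was not tested.

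The lone peaks in replicate 1 of GIN1, RNF113A and ZC3H3 had folds of 8.22, 5.47 and 5.57. Replicate 2 of ZC3H3 was the list of 15 peaks and called 0.0299% of genes. Of the 22 ORC6 peaks, 18 had a fold above the median of all promoter peaks of the same list, with medians between 4.51 and 5.53.

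**Figure D3:**
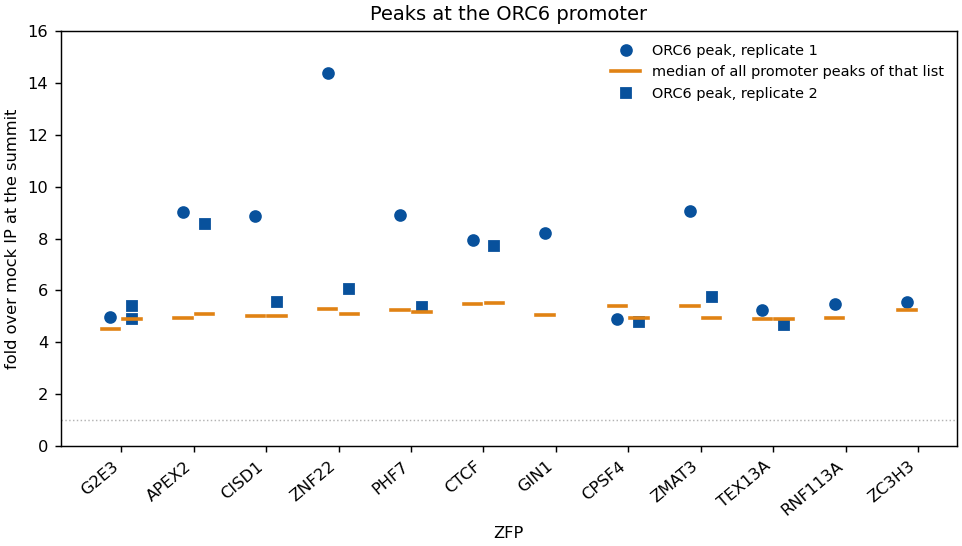
Fold over the mock IP at the summit of each ORC6 peak (circles, replicate 1, squares, replicate 2) and the median fold of all promoter peaks of the same list (bars) for the 12 ZFPs with an ORC6 peak. The dotted line marks a fold of 1. The highest point is ZNF22 replicate 1 at 14.4, and 18 of the 22 peaks lie above their bar.

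These peaks could not be given to ORC6 alone. ORC6 and VPS35, which encodes a core subunit of the retromer complex of endosomes, start 125 bp apart and are transcribed away from each other. For all 22 peaks the nearest annotated start was that of VPS35, and 20 of the 22 summits lay inside VPS35. Over all 22, the median summit lay 137 bp inside the VPS35 start. Summits lay a median of 262 bp upstream of the ORC6 start. When each peak was given only to the gene with the nearest start, ORC6 had no peak in any list.

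CDC6, the ATPase that ORC recruits to load the helicase, was called in 5 lists, always in a single replicate. The folds were 9.32 in PHF7, 5.69 in TEX13A, 5.35 in ZNF22, 4.97 in GIN1 and 4.66 in ZMAT3. All 5 CDC6 peaks were nearest to CDC6 itself, and there is no other protein-coding start within 1 kb. CDT1, the other loading factor, was called in replicate 1 of CISD1 (fold 3.71) and of G2E3 (fold 4.29). ORC1, the largest ORC subunit, was called in no list.

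Of the helicase genes, 4 of 7 were called and 1 in both replicates of a ZFP. MCM3, a subunit of the replicative helicase ring, was called only in CTCF, in both replicates, with folds of 6.63 and 7.81. The summits lay 17 bp and 47 bp upstream of the start, within the E2F and CCAAT bearing window printed above. No other list of the 72 called MCM3, which makes it the member with calls in a single ZFP and in both of its replicates.

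MCM7, another ring subunit, was called in 1 replicate each of CISD1, CTCF, G2E3, GIN1 and ZNF22, with folds of 4.45 to 6.24. Its start lies 74 bp from that of AP4M1, an adaptor subunit of vesicle traffic, and all 5 peaks were nearest to AP4M1. MCM6 had 1 peak, of fold 6.19 in G2E3 replicate 2, and MCM4 had 1, of fold 4.53 in TEX13A replicate 2. MCM2, MCM5 and MCM10 were called in no list.

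The activation factors were called in 3 of 5 cases. GINS1, a GINS subunit, was called in both replicates of G2E3 (folds 5.34 and 5.70), and in 1 replicate of APEX2 (7.15), CISD1 (6.02) and SNRPC (4.97). All 5 GINS1 peaks lay at an annotated alternative start 16.7 kb from the canonical one and were nearest to ABHD12, a lipid hydrolase gene that starts 173 bp away. At the canonical start GINS1 was called in no list. CDC45, which joins the helicase with GINS, was called in 1 replicate of G2E3, PHF7 and ZMAT3 with folds of 4.50 to 4.89. GINS4 was called in 1 replicate of APEX2 and GIN1 with folds of 5.45 and 4.96, and GINS2 and GINS3 were not called.

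PCNA, the sliding clamp, ranked after ORC6. It was called in both replicates of APEX2 (folds 6.36 and 5.73), G2E3 (3.61 and 4.07) and ZNF22 (7.28 and 6.53), and in 1 replicate of 6 further ZFPs. The G2E3 peaks did not overlap each other and had −log10 q values of 1.62 and 1.79, so that this call was lost when overlap or a −log10 q of at least 3 was asked for. In PHF7 replicate 1 the PCNA peak had a fold of 10.8. Of 13 PCNA peaks, 9 lay at the canonical start, where the DNA printed above was covered in part by 8 peaks, and 4 lay at a second start 6.67 kb away, close to the start of CDS2, a gene of phospholipid synthesis. With the canonical start alone PCNA kept its 3 ZFPs and was called in 9 lists instead of 12.

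The clamp loader genes called were RFC2 and RFC5, each in 2 lists, which is the median of the members. RFC2 was called in CISD1 replicate 1 (fold 4.33) and ZMAT5 replicate 2 (fold 2.00), and RFC5 in GIN1 replicate 1 (4.97) and SNRPC replicate 2 (6.89). RFC1, RFC3 and RFC4 were called in no list. No loader gene had a peak in both replicates of a ZFP.

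Of the polymerase and primase genes 4 of 5 were called, led by POLD1, the catalytic subunit of the lagging-strand polymerase delta. POLD1 was called in 12 lists of 10 ZFPs, and in both replicates of G2E3 (4.50 and, at the main start, 5.67) and ZNF22 (6.90 and 5.76). In CISD1 replicate 1 the POLD1 fold was 7.58. Every POLD1 peak was nearest to POLD1, so that its count did not change under the nearest-start rule. POLE, the catalytic subunit of the leading-strand polymerase, and POLA2, of the polymerase alpha and primase complex, were each called in 3 lists, in a single replicate each. The POLE peaks included 2 at starts 38.0 and 61.4 kb from the canonical one, and with the canonical start alone POLE was called in 1 list. PRIM1, the primase subunit, was called in 1 list, and POLA1 in none.

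RPA, the complex that coats single-stranded DNA, had 2 of 3 genes called. RPA3 was called in both replicates of ZNF22 (folds 5.95 and 4.62) and in 1 replicate of APEX2, CPSF4, CTCF and TEX13A. The 6 RPA3 peaks lay at annotated starts about 78.0 kb from the canonical one, and with the canonical start alone RPA3 was called in no list. UMAD1 starts 22 bp from a start of RPA3, and all 6 peaks were nearest to RPA3. RPA2 was called in 4 lists with folds of 3.98 to 6.16, and RPA1 in none.

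For nucleotide supply, RRM2, the small subunit of ribonucleotide reductase that is made in S phase, was called in both replicates of APEX2 (5.73 and 5.44) and G2E3 (5.36 and 5.70). The APEX2 replicates marked different starts of RRM2, 200 bp inside the gene and 145 bp upstream of a start 2.04 kb from the canonical one. In G2E3 the pair of summits lay near the main starts. TYMS, thymidylate synthase, was called in 4 lists, in a single replicate each, with folds of 4.91 to 7.19. RRM1, the large subunit, was called in no list.

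Cyclins and their kinases were called in 6 of 8 cases. CCNE2, cyclin E2, was called in 10 lists of 9 ZFPs and in both replicates of CISD1 (5.30 and 5.73). In replicate 1 of CPSF4, ZNF22 and PHF7 its folds were 8.50, 8.44 and 7.89. All 11 CCNE2 peaks were nearest to NDUFAF6, a mitochondrial assembly factor gene whose start lies 279 bp away. CCNE1, cyclin E1, has no protein-coding neighbour within 1 kb, and it was called in both replicates of G2E3 (peaks of 4.48 and 5.37 in replicate 1 and 3.98 in replicate 2), in CISD1 (6.72) and in PHF7 (4.86).

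CDK1, the mitotic kinase, was called in 5 lists, each from another ZFP, with folds of 3.83 to 5.30. CCNB1, its cyclin B1 partner, was called in 4 lists with folds of 4.40 to 5.97. CCNA2, cyclin A2, was called in 3 lists and CCND1, cyclin D1 of G1 phase, in 2. The CCNA2 peak in TRIM55 replicate 2 had a fold of 2.00, as did the median promoter peak of that list, which had no peak on exons of TRIM55. CCNB2 and CDK2 were called in no list.

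E2F3, an activating E2F factor, was called in both replicates of APEX2 (5.09 and 6.64) and in 1 replicate of CPSF4 (5.43), CTCF (4.43) and ZC3H3 (4.47). The APEX2 peaks of the replicates did not overlap each other, so that E2F3 had no call left in both replicates when only overlapping peaks counted. All 5 peaks lay upstream of E2F3, a median of 292 bp, and were nearest to the start of the long non-coding gene ENSG00000289981. E2F1, the other E2F gene among the members, was called in no list.

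Of the genes of mitosis and proliferation, 5 of 7 were called and 0 in both replicates of a ZFP, where the 16.7% of all genes would amount to about 1 gene. AURKB, the kinase of the chromosomal passenger complex, led with 4 lists and folds of 3.99 to 5.08. PLK1 and AURKA, kinases of mitotic entry and spindle assembly, were each called in replicate 1 of CISD1 and of ZNF22, with folds of 4.53 to 5.23. CDC20, an activator of the anaphase-promoting complex, and BUB1, a checkpoint kinase, were called in 1 list each. MKI67 and TOP2A, common markers of dividing cells, were called in no list.

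**Figure D4:**
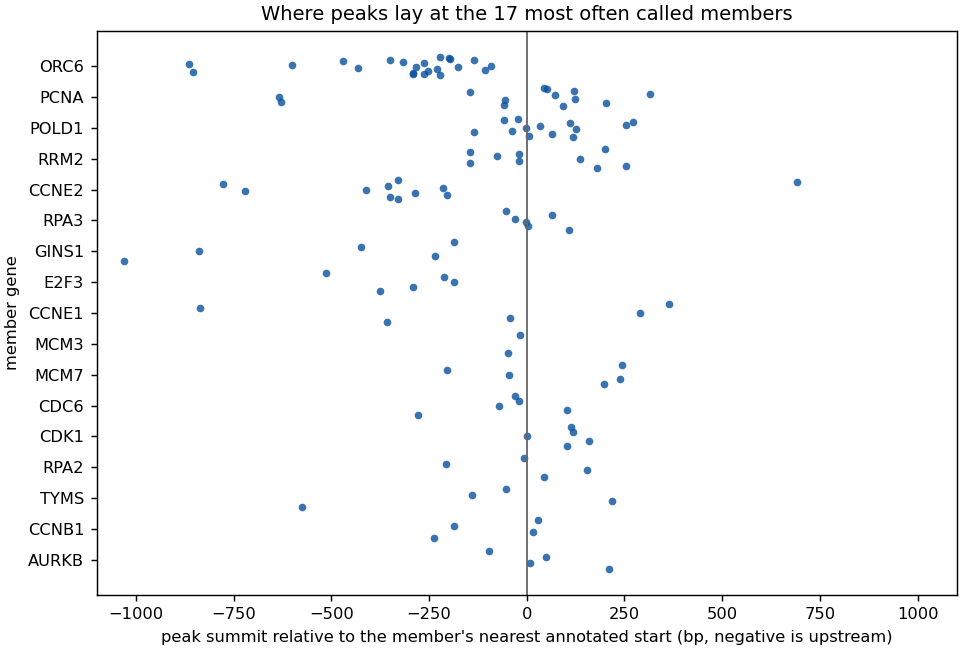
Position of each peak summit relative to the nearest annotated start of the member (bp, negative is upstream) for the 17 highest-ranked members. Rank is by the number of ZFPs with a call in both replicates, then by the number of lists. The ORC6, CCNE2, GINS1 and E2F3 summits lie upstream, except 1 of CCNE2, on the side of the neighbouring gene, whereas POLD1 and RPA3 summits straddle the start.

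Member peaks were set beside promoter peaks in general, with no test of the differences. The 153 pairs of a peak and a member had a median fold of 5.30, and the 43019 promoter peaks of all protein-coding genes one of 5.08. Summits lay a median of 157 bp from the start at members and 156 bp at all genes, and 79.1% of member peaks and 72.3% of all promoter peaks had the summit within 300 bp. In 30 lists with a member peak, the median fold at members was above that of all promoter peaks in 20 and below it in 9. Of the 153 member peaks, 68 (44.4%) had a −log10 q value under 3. The same share was not computed over all promoter peaks, so it cannot be read as a trait of the members.

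Another protein-coding gene started within 1 kb of 18 of the 50 members and of 4668 of all 20046 genes, a difference that was not tested. For 58 of the 153 pairs (37.9%) the nearest start belonged to another gene, beside 24.7% for all protein-coding genes. Without ORC6, which gave 22 of the 58, the share was 27.5% (36 of 131). Of the 18 members with the start of another protein-coding gene within 1 kb, 13 were called and 6 of them in both replicates of a ZFP. Of the 32 without such a neighbour, 20 were called and 4 in both replicates. For all genes the corresponding shares were 73.9% and 27.3% with a neighbour, and 50.3% and 13.5% without. Assigned to the nearest start, 26 members (52%) were called, beside 50.5% of all genes, and 6 (12%), beside 12.4%, in both replicates of a ZFP, namely PCNA, POLD1, RRM2, RPA3, CCNE1 and MCM3.

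Base composition set a second frame for these counts. A promoter was called CpG-rich when the 500 bp to each side of the canonical start had at least 50% GC and a ratio of observed to expected CpG of at least 0.6, which held for 48 of 50 members (96%) and 64.8% of all genes. CpG-rich genes were called in 74% of cases in any list and in 23.5% in both replicates of a ZFP, and CpG-rich members in 66.7% and 18.8%. The shares of CpG-rich members were below those of all CpG-rich genes, which pass the same thresholds but were not matched further, and the differences were not tested.

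Other genes of the same pathways were called in a larger share of cases than the members in any list, and this difference was not tested. The background is again 55.8% and 16.7% of all genes, or 74% and 23.5% of CpG-rich genes. Of 36 other replication genes, such as further ORC subunits and polymerase subunits, 33 (91.7%) were called in any list and 9 (25%) in both replicates of a ZFP. Of 59 other cell cycle genes, such as CDC25 phosphatases and checkpoint kinases, 51 (86.4%) were called and 15 (25.4%) in both replicates. Of 40 genes restricted to other tissues, 6 (15%) were called and 2 (5%) in both replicates. The median number of lists per gene was 3 in both pathway lists, 2 among members and 0 among the tissue-restricted genes.

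**Figure D5:**
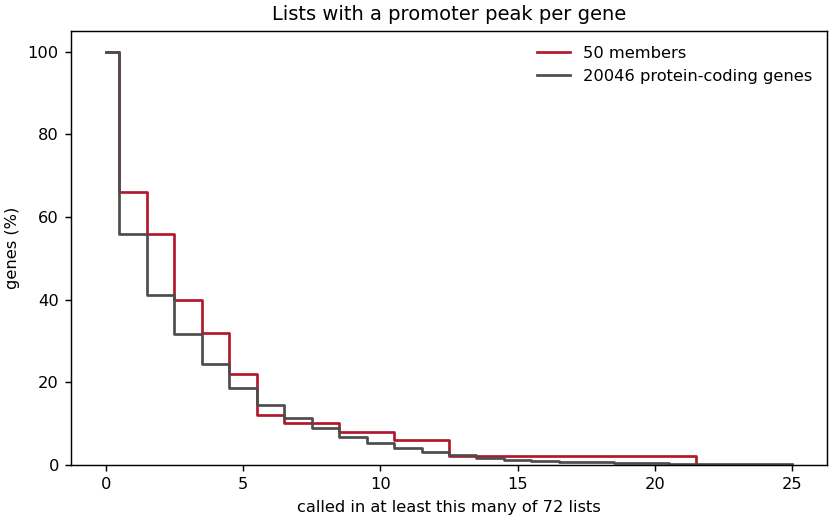
Percent of the 50 members and of all 20046 protein-coding genes called in at least the number of lists given on the horizontal axis. The members are above all genes at 1 list (66% and 55.8%) and slightly below them at 6 lists (12% and 14.5%), and the member line from 13 lists on is ORC6 alone.

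The 17 members without any promoter peak were MCM2, MCM5, MCM10, ORC1, GINS2, GINS3, RFC1, RFC3, RFC4, POLA1, RPA1, RRM1, CCNB2, CDK2, E2F1, MKI67 and TOP2A. Each role had at least 1 gene on this list. Of the 17, 16 had CpG-rich promoters (94.1%), beside 97% of the called members. A missing peak means that none passed the authors' threshold in that list, and not that no protein was there. A further 23 members were called, but in both replicates of no ZFP, 5 of them in 1 list only.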

How the data were processed

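Cut&Run libraries of HEK293T cells expressing 1 of 36 V5-tagged ZFPs were analysed from 72 deposited peak lists, 2 replicates per ZFP. The 2 V5 mock IP samples served as controls, and no peak list of theirs was used here. Samples were grouped by the ZFP and replicate number in their labels.

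Reads were trimmed by the authors (Trimmomatic 0.36) and mapped to hg38 (bowtie2 2.3.5.1), keeping fragments between 10 and 700 bp. Duplicates were removed with Picard, listed as version 0.1.8 in the submitters' processing notes. Narrow peaks came from MACS2 2.2.7.1 at an FDR of 0.05, run separately for every library with the mock IP of its batch as control. Replicates were not pooled in the deposited lists. The deposited fold is a ratio of library signal to mock IP signal at the summit. The deposited −log10 p-value and −log10 q-value are those of the peak caller, and the deposited score is a rescaled −log10 q. A list holds only peaks past the threshold, so weak binding is missing from it, and folds of different lists are given side by side with no test. The sources used here state neither batches nor read totals for single libraries.

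Transcript starts were taken from GENCODE 44 on hg38, and a peak was assigned to every protein-coding gene with a start within 1 kb of its nearest edge. All 50 members were found by symbol. Counts of members are given beside the same count over 20046 protein-coding genes, with no enrichment test, since the lists share controls and the members were chosen by name with results known. Where values of 2 replicates are averaged, the SD is given. Neighbouring genes, base composition and the words named in the text were read from the hg38 sequence. The steps used Python 3.11.15, numpy 2.4.6, pandas 2.3.3 and pysam 0.24.0, and matplotlib 3.10.9 for the plots. On simulated peaks, 200 of 200 planted genes were recovered and all assignments were those of an exhaustive search.

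The members and the gene lists were chosen with earlier results of these data known. Members were ranked by the number of ZFPs with a call in both replicates, ties by the number of lists and then by the higher of the lower folds of replicate pairs. They were named when they were in the first 15 places (17 with ties, 7 of them without a call in both replicates of any ZFP), had no peak, were among the 2 strongest in 1 of the 10 ZFPs with the highest share, or led their role. The other members are named because all 50 are accounted for. Distances, starts, peak thresholds, backgrounds, replicates and the set of ZFPs were varied.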

Additional observations from a re-analysis of the deposited data

Results flagged for a closer look

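The member share was above that of all protein-coding genes in both replicates for 6 ZFPs and below it in both replicates for 18. The difference between these sets of ZFPs was not tested, and 17 of the 18 had no member called in either replicate, in lists that called at most 1.14% of all genes. The count stayed at 6 or 7 with other distances, the canonical start or stricter peak thresholds. It became 1 under nearest-start assignment and beside CpG-rich genes. Beside genes with a peak in any list the count was also 1, but members without a peak were kept there, so it could only fall. With ORC6 left out, an alternative chosen after seeing the data, 2 ZFPs remained above in both replicates and 20 were below. ORC6 was the most-called member and the background was kept whole, so this shows only how much rests on ORC6.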

How the results depend on the processing

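The mean difference between the shares of members and of all genes, 0.807 points, ranged from -1.79 to 1.04 over 14 alternatives. The lowest, -1.79, came against genes with a peak in any list. That background left out uncalled genes while the 17 uncalled members were kept, so the difference could only fall and shows no reversal. Of the other alternatives, CpG-rich genes gave the lowest value, -0.44, nearest-start assignment -8.87e-05 and ORC6 left out 0.295. Leaving out ORC6, the most-called member, from the members alone had to lower the difference. Other distances, the canonical start and stricter peak thresholds gave 0.585 to 0.896. Single replicates gave 0.571 and 1.04. ZFPs above the background in both replicates numbered 6, and 6 or 7 with other distances, the canonical start or stricter peak thresholds. They numbered 1 under nearest-start assignment, 1 against CpG-rich genes and 2 with ORC6 left out. Against genes with a peak in any list the count was 1, and it could only fall for the reason given above. In a single replicate 12 were above with either one left out, since 1 list then decides. Members called in any list, 33, fell to 9 when only peaks overlapping between replicates counted, and were 23 and 30 in single replicates, while the shares of all genes went from 55.8% to 13.8%, 35.5% and 51.0%. Members called in both replicates of a ZFP, 10, fell to 6 under nearest-start assignment, and 23 and 30 were called in single replicates, where 1 call suffices. At a −log10 q of at least 3, 26 members were called in any list, beside 39.8% of all genes. In both replicates of a ZFP, 7 members were called at that threshold, beside 7.81% of all genes. The 9 ZFPs at ORC6 became 0 under nearest-start assignment and 5 at a −log10 q of at least 3, and 9 and 12 in single replicates. Leaving out the libraries labelled U2AF1, added after seeing the data, left the 4 counts as they were and the mean difference at 0.790 points. No paired analysis was possible because these results come from no test or fitted model to which a block could be added. Shares in short lists rest on few peaks, and 44.4% of member peaks had a −log10 q under 3, a share not computed for all promoter peaks.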

Other observations

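Peaks also lay inside members but more than 1 kb from any start. There were 20 in 9 members, 12 of them on exons, with folds of 3.55 to 26.6. The strongest was in RNF113A replicate 1, on an exon of POLA1, the catalytic subunit of polymerase alpha, with a fold of 26.6, and the same library had a peak of fold 11.2 on an exon of RRM1. Neither gene had a promoter peak in any list, and replicate 2 of RNF113A had no peak at either place.

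CDT1 had exon peaks 1349 to 2092 bp from a start in replicate 1 of BRCA1, CISD1, G2E3, ZC3H3 and ZNF22, with folds of 4.47 to 7.08. An intron of POLE had peaks 2496 to 2871 bp from a start in replicate 1 of GIN1 (6.98) and SALL4 (4.39) and replicate 2 of LIN28B (5.02) and MBNL1 (5.65). SALL4 and MBNL1 called no member promoter in either replicate.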
